A study of Mus musculus with 26 samples.

Results

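In mouse embryonic stem cells, 7945 CpG sites inside open chromatin were methylated to an intermediate level on both DNA strands at once. They were found in the merged M-ATAC table as 2 adjacent cytosines of the same CpG, each with at least 5 reads and each between 20 and 80% methylated. A total of 397349 CpGs had at least 5 reads on both strands, so the intermediate CpGs were 2.00% of them. They lay in 5970 of the 39272 peak regions that held such a CpG. The members were chosen by their M-ATAC methylation and coverage, so these values describe them and test nothing. They are set against 374634 CpGs under 20% on both strands, called low CpGs below, and beside 14117 CpGs that were intermediate on 1 strand and under 20% on the other, called single-strand CpGs.

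M-ATAC tags accessible chromatin with a Tn5 transposase carrying methylated adaptors, and bisulfite conversion then lets each sequenced fragment report accessibility and methylation at once. The 14 samples used here were M-ATAC (4), M-ATAC-NC without bisulfite conversion (2), ATAC with Nextera adaptors (2), CTCF-M-ChIP (2), CTCF-M-ChIP-NC (2) and CTCF-ChIP (2), where CTCF is a zinc finger protein of insulators and loop anchors. All came from the KH2 embryonic stem cell line, without a treatment or a deletion named for them, grown on irradiated feeder cells that were removed by pre-plating. RNA-seq with merged replicates gave expression in TPM, a level scaled by gene length and sequencing depth. The labels do not say whether replicates were separate cultures, so p-values measure only the spread between these samples.

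A CpG reads as CpG on either strand, and the maintenance methyltransferase DNMT1 copies methylation from the old strand to the new one after replication. A site can therefore carry methyl groups on both strands, on neither, or for a time on 1 (hemimethylation). Bisulfite reads of the 2 strands come from different fragments. A value between 0 and 100% on both strands describes a mixture of molecules, which may differ between cells or between the alleles of a cell.

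In the merged RNA-seq all 7 markers of embryonic stem cells were at high levels, from 229 TPM for Zfp42 to 942 TPM for Tdgf1. The 7 fibroblast markers ranged from 0.08 TPM for Lum to 48.7 TPM for Col1a1, and none was at 0. The part of feeder cells in the intermediate values was not tested.

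The sequences around members that carry the results are shown first, as 30 bases of the GRCm38.p6 plus strand with the CpG in capitals. The first set comes from 2 clusters of members in single-copy sequence, in an intron of Vgll4 and at the start of Btbd18.

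Vgll4 chr6:114889007-114889008: tgagtgagagagggCGctgttctgcgcagc
Vgll4 chr6:114889170-114889171: ggcagattggcatgCGcggaatgtgaggac
Vgll4 chr6:114889230-114889231: ctccagctacagagCGcggtctgcaggagg
Btbd18 chr2:84658974-84658975: ctccctggagacttCGcctcccaccaaggc
Btbd18 chr2:84659012-84659013: tcgtctgattggctCGcccaggagcggccg

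The second set holds members at the starts of germline genes, the gene group with the highest share of members among the lists used here.

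Brdt chr5:107331014-107331015: ctcctagggagtggCGgcacggagcgaata
Sycp3 chr10:88459558-88459559: cacgtgctaggaggCGgggctatacgtaag
Piwil2 chr14:70429505-70429506: ggctcaccctttcaCGcagtctagctatgt
Tex11 chrX:101059764-101059765: gacagaatgagtcaCGctctgtgattggtc

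The third set holds 4 of the 5 members with the most reads on their less covered strand.

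Sfi1 chr11:3146979-3146980: cacttaagagcgccCGggtttgattcccag
Gm34816 chr1:139412589-139412590: cttaggacaatagcCGagtctcatccaaac
Vmn2r85 chr10:130419999-130420000: aggtggggaccaggCGccctggtgtttacc
Intergenic chr4:34411025-34411026: agggcaggtgactgCGctgcatctgcaaag

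Members were sparsely covered. The less covered strand had 6 reads at the median (range 5 to 43), and both strands together had 15 reads (range 10 to 98), against 24 reads at low CpGs. Methylation over both strands had a median of 37.5%, with quartiles of 29.2 and 47.1%. Of 135900 reads at members, 52837 were methylated (38.9%). The same share was 17.1% at single-strand CpGs and 0.589% at low CpGs. By level, 4437 members were under 40%, 2775 were from 40 to under 60% and 733 were from 60 to 80%.

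With 5 reads the level of a strand moves in steps of 20%, so 1 methylated read is enough to enter the range. A total of 3359 members had 5 reads on at least 1 strand. Exactly 1 methylated read on a strand was found at 1612 members, and 238 of these had exactly 1 on each strand. At least 2 methylated reads on each strand were found at 6333 members (79.7%) and at least 3 at 3247. Just inside the lower bound, 2019 members had a strand at exactly 20%. Just outside it, 2129 single-strand CpGs had their lower strand at 15 to under 20%, while 7694 had it at 0%. At the upper bound, 359 members had a strand at exactly 80%.

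The share of members fell as coverage rose. Members were 5.15% (95% Wilson interval 4.98 to 5.32%) of the CpGs whose less covered strand had 5 reads. They were 1.07% (0.999 to 1.14%) at 10 to 14 reads and 0.146% (0.118 to 0.179%) at 20 or more, where 88 members remained. Outside promoters the share fell from 17.4% (16.8 to 18.02%) to 1.44% (1.14 to 1.82%) over the same range. Intervals here and below cover counting error only, since CpGs of a peak share reads and are not independent, and reads without molecular identifiers are not independent molecules.

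**Figure D1:**
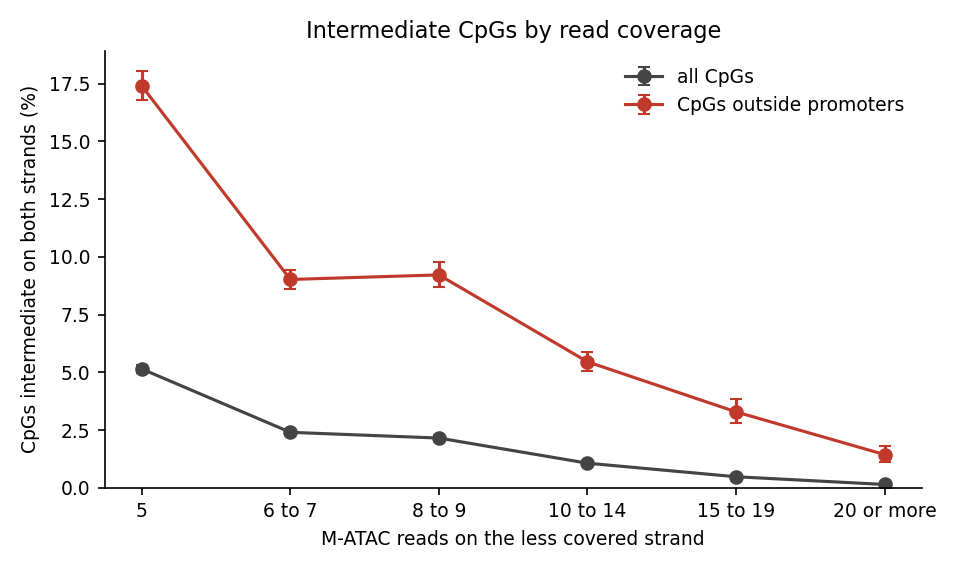
Share of CpGs that were intermediate on both strands (y axis, %) by the number of M-ATAC reads on the less covered strand (x axis), for all CpGs and for those outside promoters, with 95% Wilson intervals. Both lines end at their lowest share, 0.146% and 1.44% at 20 or more reads.

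Strands of a CpG were compared next. Among 15348 CpGs intermediate on the plus strand, the minus strand was intermediate at 51.8% (95% Wilson interval 50.97 to 52.6%). Among 381655 CpGs with a low plus strand it was intermediate at 1.83% (1.79 to 1.88%). Among 346 CpGs with a plus strand above 80% it was intermediate at 74.0% (69.1 to 78.3%), more often than beside an intermediate plus strand. The first share was 42.7% with bounds of 30 to 70%, 46.8% in regions overlapped by every M-ATAC sample and 55.5% with at least 10 reads on each strand. The absolute difference between the strands of a member was 11.4 percentage points at the median, with quartiles of 5 and 20. CpGs with both strands above 80% numbered 72. A minus strand low beside a plus strand above 80% was seen at 18 CpGs, and the opposite at 21.

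Members stood in narrower and weaker peaks than low CpGs. The width of the peak region had a median of 312 bp at members and 578 bp at low CpGs, and the highest fold enrichment over the local background was 8.74 against 11.96. Single-strand CpGs were close to members, at 343 bp and 8.83. Outside promoters members and low CpGs differed less, at 313 against 419 bp and 8.95 against 10.2. Width and fold were not compared at matched coverage. Among members the median fold was 8.32 at 5 to 9 reads on the less covered strand. It was 12.4 at 10 to 19 reads and 17.8 at 20 or more. Inside the region, the distance from the midpoint was measured from 0 at the midpoint to 1 at the edge. Its median was 0.461 (95% order-statistic interval 0.451 to 0.473) at members and 0.396 (0.394 to 0.397) at low CpGs, and it was larger at members on 20 of 20 chromosomes. At single-strand CpGs the median was 0.473 (0.467 to 0.481). Of 5 equal bins from midpoint to edge, the outermost held 14.1% of members, 15.4% of single-strand CpGs and 10.8% of low CpGs. The innermost held 22.0, 20.6 and 26.01%.

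The difference in place between members and low CpGs was not seen at matched coverage. With low CpGs weighted to the coverage of members the difference in medians was -0.00727, and with at least 10 reads on each strand it was 0.00186, against 0.0654 before. In base pairs the order was the opposite, since members lay 42 bp and low CpGs 59 bp from the nearest summit at the median, in peaks of unequal width. In the 2409 regions that held both kinds, where width is the same for both, the mean distance from the midpoint was larger for members in 1508 (62.6%). The members of these regions lay 15.5 bp farther from the summit at the median, with quartiles of -13.3 and 55. Coverage was not matched within these regions. Over all regions, CpGs with at least 10 reads on each strand showed no steady rise of the member share toward the edge. From the innermost to the outermost bin it was 0.633, 0.585, 0.634, 0.754 and 0.526%.

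Members were clustered within peaks. Of the 5970 regions with a member, 4608 held 1, 951 held 2, 281 held 3 and 130 held 4 or more, up to 8. Another member stood in the same region for 42.0% of members (95% Wilson interval 40.9 to 43.1%). Consecutive members of a region were 30 bp apart at the median, with quartiles of 11 and 81 bp. In 4032 regions at least 2 CpGs were measured. Every measured CpG was a member in 441 of them (10.9%) and at least 1 was low in 2409 (59.7%).

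The nearest measured CpG of the same region was itself a member for 37.4% of 6007 members (95% Wilson interval 36.1 to 38.6%). For single-strand CpGs it was a member in 14.5% (13.9 to 15.1%), and for low CpGs in 0.444% (0.423 to 0.466%). Around members the share fell with distance, from 46.0% (43.7 to 48.3%) within 10 bp to 26.4% (23.4 to 29.7%) beyond 100 bp. Around low CpGs it moved the other way, from 0.132% (0.119 to 0.146%) to 4.13% (3.64 to 4.69%). CpGs a few base pairs apart are read by the same fragments, so their values are not separate measurements. The neighbour shares were not split by promoters, which held 86.9% of low CpGs and 24.5% of members.

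**Figure D2:**
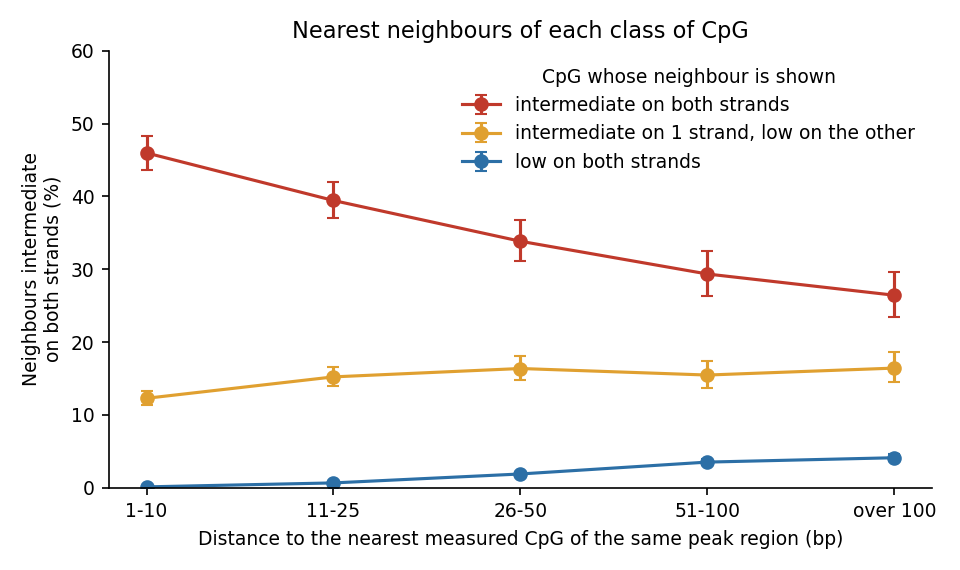
Share of nearest measured CpGs that were intermediate on both strands (y axis, %) by distance within the peak region (x axis, bp), for members, single-strand CpGs and low CpGs, with 95% Wilson intervals. Members run from 46.0% within 10 bp to 26.4% beyond 100 bp, above both other classes in each bin of distance.

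Of the 4 regions with 8 members, the one with most reads at its members was a 447 bp peak at chr6:114888938-114889384, in an intron of Vgll4, a cofactor that binds TEAD transcription factors. It held 8 members among 13 measured CpGs, with 4 single-strand CpGs and 1 low CpG. Over the 8 members 40.4% of 250 reads were methylated, from 27.5 to 56.5% at single sites. The members spanned 264 bp, the region was overlapped by a peak of every M-ATAC sample, and 7 of the 8 lay inside a merged CTCF M-ChIP peak but none in a CTCF motif match. At chr6:114889170-114889171 the plus strand had 7 of 21 reads methylated and the minus strand 9 of 20. At chr6:114889007-114889008 they had 3 of 9 and 10 of 14.

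The other regions with 8 members lay on chromosomes 14, 19 and 1. That at chr14:14347159-14348291, is a promoter region of Gm48860 in which 8 of 17 CpGs were members and 83 of 173 reads at them were methylated (48.0%). At chr19:53058096-53059111, in an intron of 1700054A03Rik, 8 of 11 CpGs were members with 59 of 140 reads methylated (42.1%). At chr1:138571617-138572267, within Nek7 and near the start of Gm37101, 8 of 9 CpGs were members with 52 of 124 reads methylated (41.9%). Nek7 encodes a kinase of mitosis and of the NLRP3 inflammasome. Low CpGs were rare in all of them, at 2, 1 and 1.

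Of the next 6 regions, each with 6 members, 3 were intergenic, 1 was in an intron of Homer2, which encodes a postsynaptic scaffold, and 2 were promoters. The promoter region at chr2:84658929-84659248 lay 53 bp from a start of Btbd18, a gene required for piRNA production in testis. All of its 6 measured CpGs were members, within 52 bp, with 65 of 119 reads methylated (54.6%). This was the highest share of methylated reads among the 10 regions, where the lowest was 34.0% at Homer2. Btbd18 stood at 2.17 TPM. The other promoter, of the lipid flippase gene Atp10d at chr5:72264344-72264740, had 6 members and 2 low CpGs among 9, with 52 of 136 reads methylated (38.2%).

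Some of the deepest members lay in repeated sequence. Of the 5 with most reads on their less covered strand, 2 were 4 bp apart in the promoter of Sfi1, at chr11:3146975-3146976 and chr11:3146979-3146980, where the 31 bp around each occur at 2 places in the reference. The second had 23 of 43 plus-strand and 27 of 55 minus-strand reads methylated (51.02% over both). In an intron of Gm34816, also at 2 places, 22 of 57 and 15 of 38 reads were methylated. In an intron of Vmn2r85, which encodes a vomeronasal receptor, the counts were 17 of 39 and 10 of 38, and at the intergenic site on chromosome 4 they were 8 of 36 and 8 of 34. The last 2 had single-copy 31 bp windows. Among all 88 members with at least 20 reads on both strands, 20.5% (95% Wilson interval 13.3 to 30.0%) had a repeated window, against 7.81% (7.20 to 8.47%) of the 6785 members with 5 to 9 reads. Reads from identical copies cannot be told apart, so such values may pool copies.

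Members were less often at promoters than low CpGs. Within 3 kb of a transcription start lay 24.5% of members (95% Wilson interval 23.5 to 25.4%), 36.7% of single-strand CpGs (35.9 to 37.5%) and 86.9% of low CpGs (86.8 to 87.0%). The difference between members and low CpGs was -62.4 percentage points, and it lay between -72.4 and -55.0 on each of 20 chromosomes. Outside promoters 319 members were in exons, 2790 in introns and 2891 in intergenic sequence. There members exceeded low CpGs only in introns (46.5 against 37.9%), and they were below them in intergenic sequence (48.2 against 53.8%) and exons (5.32 against 8.32%), although with promoters included members were above low CpGs in all of these. Taking 1 CpG per region the promoter difference was -33.0 points.

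The sequence around members was also different. A window of 102 bp held 2 CpGs at the median of members, 3 at single-strand CpGs and 9 at low CpGs. GC content was 52.9, 54.9 and 67.6%. Outside promoters the gap was smaller, and low CpGs had a median of 3 CpGs against 2 at members. Soft-masked repeats held 15.2% of members (95% Wilson interval 14.4 to 15.97%) and 2.89% of low CpGs (2.84 to 2.95%). Outside promoters the shares were 17.2% (16.2 to 18.1%) and 7.33% (7.10 to 7.56%), with members above low CpGs in both sets. Single-strand CpGs lay between, at 9.83% (9.35 to 10.3%) over all CpGs and 11.9% (11.3 to 12.6%) outside promoters. The 31 bp around the site occurred more than once for 8.01% of members (7.43 to 8.62%) and 5.03% of low CpGs (4.96 to 5.10%). For single-strand CpGs the share was 6.51% (6.11 to 6.93%).

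On the X chromosome members were 0.806% of measured CpGs (63 members), the lowest of the 20 chromosomes, and the highest was 2.78% on chromosome 3. The labels give no sex for the line.

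**Figure D3:**
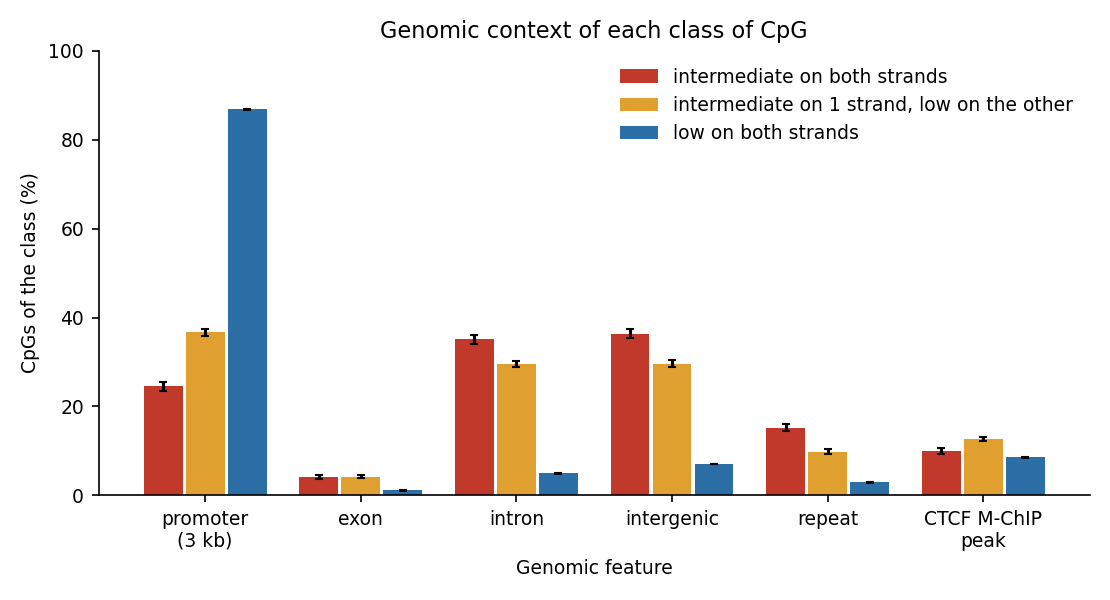
Share of members, single-strand CpGs and low CpGs (y axis, %) at promoters, exons, introns, intergenic sequence, soft-masked repeats and merged CTCF M-ChIP peaks, with 95% Wilson intervals. Members sit at 24.5% for promoters, where low CpGs reach 86.9%, and above low CpGs in introns, intergenic sequence and repeats, while outside promoters the order in intergenic sequence turns, at 48.2% of members and 53.8% of low CpGs.

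Genes with a member at a promoter were expressed at lower levels than those with a low CpG. The median was 1.05 TPM (95% order-statistic interval 0.69 to 1.45) over 1381 genes with a member and 6.46 TPM (6.1 to 6.85) over 17629 genes with a low CpG, sets that share genes. Genes with a single-strand CpG lay between, at 2.4 TPM (2 to 2.89) over 3967 genes, a set that also shares genes with these. The 1051 genes with both a member and a low CpG had a median of 3.79 TPM (2.63 to 5.14). The 330 genes with a member and no low CpG had 0.02 TPM (0 to 0.05), and 14.8% of them reached 1 TPM. RNA-seq replicates were merged, so these intervals hold the spread between genes and not that between samples.

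Some members nevertheless stood within 1 kb of a start of highly expressed genes. The highest were Rps24, a protein of the small ribosomal subunit, at 5597 TPM, the mRNA-binding protein gene Serbp1 at 1667 TPM, the fibronectin gene Fn1 at 612 TPM, the splicing factor gene Snrpe at 552 TPM and the cell cycle transcription factor gene Mybl2 at 457 TPM. Each of these genes had between 23 and 49 low CpGs within 1 kb of any of its annotated starts. The start near those low CpGs need not be the start near the member. The Rps24 member had 2 of 6 reads methylated on each strand and lay in a repeat. Mybl2 had 3 members, with 14, 14 and 26 reads and 57.1, 42.9 and 23.1% methylation.

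Gene lists were read against all genes. Of 21163 annotated genes with a measured CpG in the promoter or body, 3475 (16.4%) had a member there. Germline genes that promoter methylation is known to silence in somatic cells had a member in 8 of 12 (66.7%, 95% Wilson interval 39.1 to 86.2%), and the other 8 genes of that list had no measured CpG. Of their 195 measured promoter CpGs, 16 (8.21%) were members and 20 were single-strand, against 0.585% members among all 332713 promoter CpGs measured. These shares were not matched for coverage, and the lists were chosen with earlier results of these data known. The 8 genes were Ddx4, an RNA helicase, Sycp2 and Sycp3 of the synaptonemal complex, Mael and Piwil2 of the piRNA pathway, the testis bromodomain gene Brdt, the ADP/ATP carrier gene Slc25a31 and the meiotic gene Tex11. At Dazl, Tdrkh, Taf7l and Zfp42 none of 43, 39, 14 and 23 measured promoter CpGs was a member. Zfp42, also a marker of embryonic stem cells and expressed at 229 TPM, stands in this list and adds its 23 low CpGs to the 195.

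The germline members stood close to the transcription start. In the promoter of Brdt 5 of 24 CpGs were members, with levels from 26.9 to 40%, 6 were single-strand and 13 were low. At chr5:107331014-107331015, 145 bp from the start, 3 of 13 plus-strand and 4 of 13 minus-strand reads were methylated. At Sycp3 2 of 14 were members, and the site 11 bp from the start had 3 of 6 and 5 of 9 reads methylated. At Slc25a31 3 of 5 were members, at 27.3, 36.4 and 70%, but the 31 bp around each occur at 2 places in the reference. At Piwil2 1 of 2 was a member, with 3 of 14 and 3 of 11 reads methylated, and at Tex11 1 of 5, with 3 of 9 and 2 of 7.

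Not all of these genes were silent in the merged RNA-seq. Sycp2 was at 0.3 TPM, Slc25a31 at 1.45 and Brdt at 3.2, while Piwil2 was at 9.93, Tex11 at 10.6, Mael at 13.3, Ddx4 at 31.8 and Sycp3 at 56.3 TPM. Whether expressing and silent cells differ in methylation cannot be read from bulk values, where fewer cells with methylated copies and fewer methylated copies per cell cannot be told apart.

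Pluripotency genes had no member in any of 19 genes with 516 measured CpGs (95% Wilson interval of the share of genes 0 to 16.8%). This interval holds the 16.4% over all genes, so a lower share of genes was not shown. Imprinted genes, which are expressed from 1 parental allele, had a member in 6 of 38 (15.8%, 95% Wilson interval 7.44 to 30.4%), near the share over all genes. The 6 genes were Trappc9 with 6 members, and Kcnq1, Plagl1, Commd1, Meg3 and Usp29 with 1 each. Of these, Plagl1 and Meg3 had theirs within 3 kb of a start, with 1 of 5 and 1 of 5 reads methylated at Plagl1 and 2 of 5 and 1 of 5 at Meg3, whose 31 bp occur at 2 places. Among genes of DNA methylation and demethylation, Dnmt3a, Tet1 and Tet3 of 11 had 1 member each, all in the gene body and at 11 or 12 reads.

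Of the loci used as examples in the study, Klf4 had 97 measured CpGs and all were low. Pisd-ps1 had 1 member among 29 CpGs, at chr11:3127214-3127215, where 7 of 9 and 4 of 6 reads were methylated (73.3%). Slc5a8 had 1 member among 8, at chr10:88911397-88911398, with 2 of 5 and 2 of 6 reads methylated, in a gene listed at 0 TPM.

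The overlap with CTCF depended on promoters. Inside merged CTCF M-ChIP peaks lay 9.97% of members (95% Wilson interval 9.33 to 10.6%) and 8.54% of low CpGs (8.45 to 8.63%), a difference of 1.43 percentage points (95% Newcombe interval 0.787 to 2.12). It was above 0 on 14 of 20 chromosomes. Outside promoters the order turned, with 9.07% of members (8.37 to 9.82%) and 16.6% of low CpGs (16.3 to 16.9%), and the difference was below 0 on 20 of 20 chromosomes. At promoters 12.8% of members (11.3 to 14.3%) and 7.32% of low CpGs (7.23 to 7.41%) lay in CTCF peaks. Single-strand CpGs were above both classes over all CpGs, at 12.7% (12.1 to 13.2%). At promoters they stood at 13.5% (12.6 to 14.5%), with an interval that overlapped that of members. Only outside promoters were they between, at 12.2% (11.5 to 12.9%). For members against low CpGs, taking 1 CpG per region gave -2.83 points, and taking regions overlapped by every M-ATAC sample gave -1.89.

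The CTCF peaks that held members outside promoters had a median fold enrichment of 10.8 (95% order-statistic interval 10.3 to 11.7), against 12.4 (12.2 to 12.5) at low CpGs. With promoters included the medians were 11.1 (10.7 to 11.7) and 11.4 (11.3 to 11.5), and the intervals overlapped. Members with a level from 60 to 80% lay in CTCF peaks in 7.64% (5.93 to 9.79%) of cases and those under 40% in 10.9% (10.05 to 11.9%).

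Deposited matches to the CTCF motif, 19 bp long, were listed for merged CTCF M-ChIP peaks. The motif shares are therefore not separate from the peak shares above. Matches held at least 1 base of 83 members (1.04%, 95% Wilson interval 0.844 to 1.29%) and of 5072 low CpGs (1.35%, 1.32 to 1.39%). Outside promoters the shares were 1.00% (0.778 to 1.28%) and 3.32% (3.17 to 3.49%). Positions were counted from 1 at the 5′ end of the motif. The cytosine stood at position 15 for 42 of 83 members (50.6%, 40.1 to 61.1%) and for 39.4% of low CpGs (38.0 to 40.7%). At position 5 the shares were 2.41% (2 members, 0.663 to 8.37%) and 16.7% (15.7 to 17.7%), and at position 18 they were 14.5% (8.47 to 23.6%) and 4.77% (4.22 to 5.39%).

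CTCF M-ChIP gave a second reading of the same sites in other libraries, which the choice of members did not use. Of the 83 members in motif matches, 52 had at least 5 CTCF M-ChIP reads on both strands. Their methylation there had a median of 30.6% (95% order-statistic interval 25 to 36.4%), against 34.9% in M-ATAC. The 3341 low CpGs had a median of 0 (interval 0 to 0), and the 134 single-strand CpGs had 9.45% (7.69 to 12.5%). Both strands were again between 20 and 80% at 27 of 52 members (51.9%, 95% Wilson interval 38.7 to 64.9%), at 17 of 134 single-strand CpGs (12.7%, 8.07 to 19.4%) and at 10 of 3341 low CpGs (0.299%, 0.163 to 0.550%). Both strands were under 20% at 7 members (13.5%, 6.68 to 25.3%). The CTCF peak around these members had a median fold of 12.4, against 13.2 for low CpGs.

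**Figure D4:**
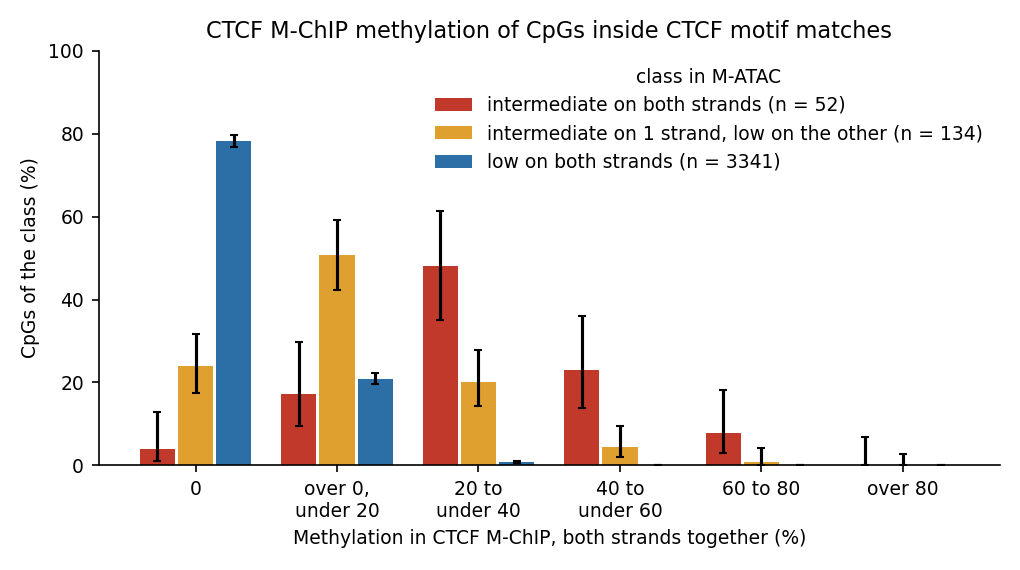
Share of each M-ATAC class (y axis, %) by its methylation in CTCF M-ChIP over both strands (x axis, %), for CpGs in CTCF motif matches with at least 5 CTCF M-ChIP reads on both strands, with 95% Wilson intervals. Of 52 members, 25 were at 20 to under 40% and 2 at 0, while 2617 of 3341 low CpGs were at 0.

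The members in motif matches with most CTCF M-ChIP reads show how the readings compare. They are written here as the deposited match on the motif strand, with the CpG in capitals.

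Stra8 chr6:34922143-34922161: catcctctaggagtCGcaa
Cep170b chr12:112724371-112724389: tggcctacagagggctcCG
Frs2 chr10:117078491-117078509: cagcaggcagagggCGctg

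Stra8, the retinoic acid-induced gene of meiotic entry, had 2 of the 5, at chr6:34922146-34922147 and chr6:34922175-34922176, in matches with the same letters. At the first, M-ATAC had 10 of 28 reads methylated (35.7%) and CTCF M-ChIP 20 of 65 (30.8%). At the second the levels were 48.1 and 44.6%. The 31 bp around the first occur at 2 places in the reference, as they do at Cep170b, so reads may be shared between copies. In the promoter of Cep170b, which encodes a centrosomal protein, the levels were 43.8 and 23.8%. In an intron of Frs2, an adaptor of FGF receptor signalling, they were 38.1 and 18.9%. The fifth, in an intron of Zfp516, had 3 of 11 M-ATAC reads methylated and 0 of 38 CTCF M-ChIP reads, which allows a level of up to 7.89% (3 reads).

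The peaks of single samples contained members less often than low CpGs. The share of members inside a peak of the sample was 31.6, 37.2, 43.9 and 39.6% in M-ATAC replicates 1 to 4, a mean of 38.1 ± 5.14% (SD, n = 4), and for low CpGs it was 68.4 ± 3.83%. Between samples of 1 group the ranges of members and low CpGs did not overlap in M-ATAC, M-ATAC-NC or ATAC. In M-ATAC-NC the means were 41.9 ± 4.06% and 79.3 ± 3.92% (SD, n = 2), and in ATAC 33.0 ± 7.09% and 74.1 ± 6.43% (SD, n = 2). No peak of a single M-ATAC sample contained 27.9% of members, and peaks of all 4 contained 10.9%, against 10.2 and 45.2% of low CpGs. Single-strand CpGs were close to members, at 26.6 and 11.1%. Their shares inside a peak of M-ATAC replicates 1 to 4 were 32.9, 40.7, 42.4 and 39.4%. Members had fewer reads than low CpGs, and these shares were not matched for coverage. In no peak of the 4 samples without conversion lay 39.5% of members, 34.5% of single-strand CpGs and 8.28% of low CpGs.

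Members minus low CpGs came to -35.6, -36.5, -24.3 and -24.99 percentage points in M-ATAC replicates 1 to 4, so that replicates 3 and 4 stood above 1 and 2. They came to -37.5 and -37.3 points in M-ATAC-NC and to -41.6 and -40.7 in ATAC. The mean of M-ATAC exceeded that of ATAC by 10.8 points (exact permutation test over samples, two-sided, p = 0.133) and that of M-ATAC-NC by 7.08 (exact permutation test, p = 0.133), where the smallest p of the design is 0.0667. Adjusted by Benjamini-Hochberg over 4 comparisons both exact p-values were 0.267. Outside promoters the difference from ATAC was 1.25 points and that from M-ATAC-NC was 4.30. Members and low CpGs were chosen by merged M-ATAC peaks, reads and methylation, which ATAC and M-ATAC-NC samples did not enter. Which of the 4 M-ATAC samples were merged is not given. Both comparisons therefore depend on how the members were chosen, and no conclusion is drawn from their p-values.

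CTCF peaks of single samples gave differences near 0 over all CpGs and below 0 outside promoters. Members minus low CpGs came to 1.33 and 1.91 points in CTCF-M-ChIP, to 0.572 and 1.73 in CTCF-M-ChIP-NC and to 1.09 and -0.110 in CTCF-ChIP. CTCF-M-ChIP exceeded CTCF-ChIP by 1.13 points (exact permutation test, two-sided, p = 0.3333, adjusted 0.444) and CTCF-M-ChIP-NC by 0.470 (exact permutation test, p = 0.667, adjusted 0.667), and 0.3333 is the smallest p that 2 samples against 2 allow. Outside promoters all 6 samples were below 0, from -8.60 in a CTCF-ChIP sample to -6.01 in a CTCF-M-ChIP sample.

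**Figure D5:**
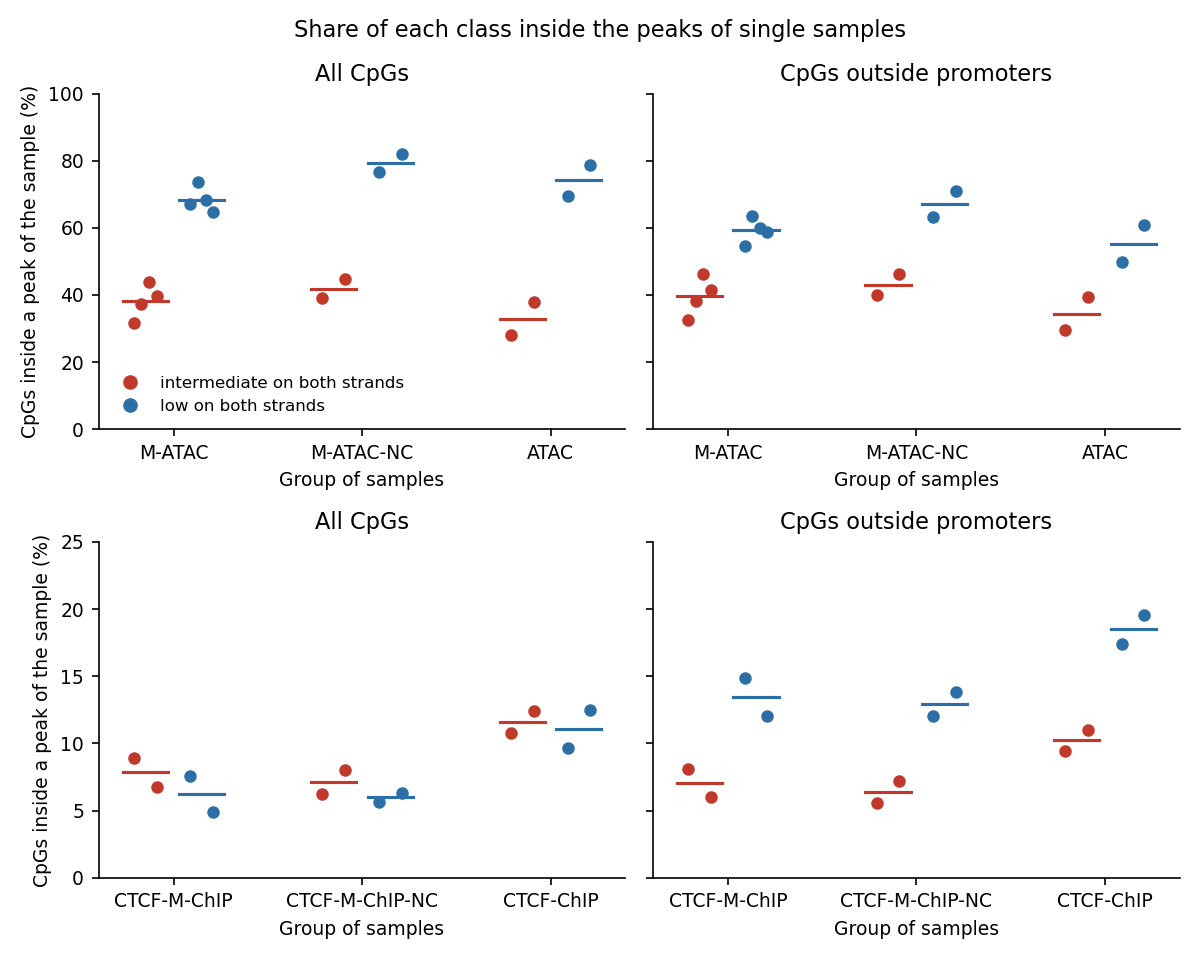
Share of members and low CpGs inside the peaks of each sample (y axis, %), by group of samples (x axis), for all CpGs (left) and those outside promoters (right), with accessibility samples above and CTCF samples below on a narrower axis. Points are samples and lines are group means, and over all CpGs members lie between 27.9 and 43.9% in ATAC and M-ATAC samples, below every low CpG share of these groups.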

How the data were processed

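CpGs were taken from the merged M-ATAC methylation table. The authors trimmed reads with Trim Galore 0.4.4, aligned converted reads to mm10 with Bismark 0.18.1, removed duplicates and called peaks on single and merged samples with MACS2. For every cytosine of the merged peaks, the tables made by the authors hold the count of methylated reads, that of unmethylated reads and the percent methylated. Each summit of the deposited peak lists carries a score, a ratio (fold enrichment) and significance as −log10 of p and of q. Motif matches were deposited as FIMO output, each with its score and p-value. TPM values were computed by the authors from RNA-seq replicates they had merged. Columns of mean methylation per peak were not used, and KLF4 lists were not analysed here.

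Of 866671 pairs of adjacent cytosines, 792460 were 1 CpG in GRCm38.p6, and 397349 had at least 5 reads on both strands. Peak regions were counted once whatever their number of summits. Which M-ATAC replicates were merged is not given in the sources used here. Promoters were within 3 kb of a GENCODE M21 start, and other CpGs were exonic, intronic or intergenic in that order. A CpG was inside a feature when at least 1 base was shared. Repeats were the soft-masked bases of the reference.

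Merged tables have no replicates, so groups of CpGs were compared with 95% Wilson, Newcombe and order-statistic intervals and over 20 chromosomes (1 to 19 and X), with no p-value. Samples were compared by exact two-sided permutation tests, adjusted by Benjamini-Hochberg over 4, with the scripts tested on simulated data. No features were called, so there is no background share of calls. The members and lists were chosen with earlier results of these data known. Named were the 10 regions with most members (ties by reads), the 5 members with most reads on the less covered strand, the genes of 4 lists with a member, the 5 members in motif matches with most CTCF M-ChIP reads on the less covered strand, the 5 genes of highest TPM with a member within 1 kb, and Klf4, Pisd-ps1 and Slc5a8. Alternatives changed the read minimum, the bounds, the regions, the weighting, the promoter and the peaks. Calculations used scipy 1.17.1 and pandas 2.3.3 with numpy 2.4.6 in python 3.11.15.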

Additional observations from a re-analysis of the deposited data

How the results depend on the processing

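At least 10 reads on each strand left 1160 members and more than 5 left 4586, against 7945, and bounds of 30 to 70% left 3194, while regions overlapped by every M-ATAC sample held 1858. The share of members with another member in the region, 42.0%, was then 32.3, 40.7, 28.3 and 50.3%. It was 39.3% with the bounds themselves left out, 40.4% in single-copy 31 bp windows and 55.6% in regions with at least 2 measured CpGs. The promoter difference from low CpGs, -62.4 points, was -65.5 (10 reads), -63.4 (over 5 reads), -65.5 (30 to 70%), -67.5 (every M-ATAC sample), -60.5 (low CpGs weighted to the coverage of members), -33.0 (1 CpG per region) and -68.6 (promoters of 1 kb). The repeat difference, 12.3 points, was 14.9, 13.7, 14.3 and 19.1 in the first 4 of these, 13.3 with the bounds left out, 9.25 in single-copy windows, 8.92 with 1 CpG per region and 9.84 outside promoters.

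The difference in distance from the midpoint, 0.0654, was 0.00186 with 10 reads, 0.159 in regions of every M-ATAC sample and 0.104 with 1 CpG per region. It reversed to -0.00727 after weighting by coverage and to -17 bp as distance from the summit. The CTCF peak difference, 1.43 points, reversed to -1.89 in regions of every M-ATAC sample, -2.83 with 1 CpG per region, -7.52 outside promoters and -7.18 under the first and last of these together. The motif difference, -0.309 points, was -0.0399 with 10 reads, -1.35 with 1 CpG per region and -2.32 outside promoters. The difference in CpG number, -7, was -8 in regions of every M-ATAC sample and after weighting, -2 with 1 CpG per region and -1 outside promoters. Methylation in CTCF M-ChIP, 30.6%, was 37.5% for bounds of 30 to 70% and 37.6% in regions of every M-ATAC sample, and it was 29.5% in single-copy windows and 26.9% with at least 10 CTCF M-ChIP reads on both strands. The share of plus-strand intermediate CpGs that were intermediate on the minus strand, 51.8%, was 55.5% with 10 reads, 49.1% with the bounds left out, 46.8% in regions of every M-ATAC sample and 42.7% for bounds of 30 to 70%. Repeat, CpG number and motif outside promoters, and the combined CTCF setting, were chosen after the data were seen. Where a value reversed, the cause was not tested.

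Leaving out 1 sample at a time gave 8.80 to 12.9 points for M-ATAC against ATAC, 5.07 to 9.13 against M-ATAC-NC, 0.536 to 1.73 for CTCF-M-ChIP against CTCF-ChIP and -0.111 to 1.05 against CTCF-M-ChIP-NC. The last reversed without CTCF-M-ChIP-NC replicate 1. M-ATAC replicates 3 and 4 alone gave 16.5 and 12.8. With the replicate block the 4 differences were 5.12, 1.38, 1.13 and 0.470. The numbers do not pair the samples in the labels, and the deviations of same-numbered samples over 20 chromosomes correlated at -0.362, -0.403, 0.105 and 0.135.

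Merged tables hold no replicates, so differences between CpG classes have no replicate check. At 5 reads per strand a single level is known only in steps of 20 points.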
